A study of Mus musculus with 8 samples.

Results

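The genes described here are 41 genes of fatty acid handling, of 32285 genes listed in the count matrices, read in cells of the mouse periosteum. They were chosen by name and by known role, though with earlier results of these data known. Uptake and intracellular transport have 6 genes (Cd36, Slc27a1, Slc27a4, Fabp3, Fabp4, Fabp5), and lipoprotein lipolysis has 3 (Lpl, Gpihbp1, Angptl4). Activation to acyl-CoA has 4 (Acsl1, Acsl3, Acsl4, Acsl5), and storage as triglyceride and the lipid droplet coat have 4 (Dgat1, Dgat2, Plin2, Plin3). Triglyceride lipolysis has 3 (Pnpla2, Lipe, Mgll). A further 15 belong to mitochondrial oxidation, namely 3 of the carnitine shuttle (Cpt1a, Cpt2, Slc25a20), 6 of the β-oxidation cycle (Acadvl, Acadl, Acadm, Hadha, Hadhb, Acaa2), 3 auxiliary enzymes for unsaturated fatty acids (Eci1, Eci2, Decr1) and 3 of the electron transfer flavoprotein (Etfa, Etfb, Etfdh). The last 6 are 2 genes tied to mitochondrial fuel choice (Ucp2, Pdk4) and 4 nuclear receptors or coactivators (Ppara, Ppard, Pparg, Ppargc1a).

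The study compared periosteum of male C57BL/6J mice, 16 weeks old, that had been fed a normal diet (ND, chow) or a high-fat diet (HFD). The periosteum is the cell layer that covers bone. Its cells were released from femurs and tibias by collagenase and dispase and counted by droplet-based single-cell RNA sequencing, in which each molecule carries a unique molecular identifier (UMI). The labels list 4 mice per diet, but each diet has 1 matrix and no cell is tied to a mouse, so that 1 ND library was compared with 1 HFD library, no test was possible, and diet and library cannot be told apart.

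Long-chain fatty acids reach tissues within lipoproteins or bound to albumin. Lipoprotein lipase (LPL), held on capillary endothelium by GPIHBP1 and inhibited by ANGPTL4, frees them from triglyceride, and CD36 and fatty acid transport proteins take part in their entry into cells, where fatty acid binding proteins carry them. Once coupled to coenzyme A, they are stored as triglyceride in lipid droplets or enter mitochondria through the carnitine shuttle to be shortened by β-oxidation. PPAR nuclear receptors respond to fatty acids and control many of these genes, and bone-forming cells are known to use fatty acids as a fuel.

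Barcodes counted as cells when over 500 and below 8000 genes were detected and mitochondrial UMIs made up less than 20%, which left 6029 of 6314 ND barcodes and 6224 of 6636 HFD barcodes, with a median of 4610 and 4823.5 UMIs per cell. Clusters made without the 41 genes fell into 12 classes, each called "-like" after its marker genes, and 9 of the classes held at least 100 cells over both libraries. Neutrophil-like cells (2401 ND and 2429 HFD) and B cell-like cells (1517 and 1475) were the most numerous. Mesenchymal-like cells numbered 409 in ND and 670 in HFD, and endothelial-like cells 117 and 230. Barcodes shared by the kept cells of both libraries numbered 14. Levels are UMIs of a gene per 1000000 UMIs of a class, and the interval in brackets after a level or a ratio is an exact 95% interval that covers counting error only.

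Of the 41 genes, 40 reached 50 UMIs over both libraries in at least 1 class and 3 did so in all 12. Ppara, the PPAR receptor of fasting liver, did so in none, with 5 UMIs in all ND cells and 6 in all HFD cells. The class with the highest level was the same in both libraries for 31 of the 41 genes. Over both libraries together it was the pericyte-like class for 15 genes, among them Fabp3, Acsl3, Pnpla2, 8 genes of oxidation, Pdk4, Ppard and Ppargc1a. It was the endothelial-like class for 8, most of them genes of uptake and lipolysis. It was the neutrophil-like class for 5 genes and the mesenchymal-like class for Angptl4, Plin3 and Cpt2. Plin2 and Cpt1a were highest in macrophage/monocyte-like cells, Acsl4 and Etfdh in basophil/mast-like cells, Slc27a1 and Acadl in dendritic-like cells, Acsl5 and Eci2 in erythroid-like cells, Etfb in hematopoietic progenitor-like cells and Ucp2 in B cell-like cells. The pericyte-like class is 1 cluster led by Tagln, Acta2, Myl9, Tpm2, Sparcl1 and Myh11, and no separate list of smooth muscle markers was read. Its second highest marker list was that of neutrophils (mean log2 1.68), whose 9 markers summed to 28507 in ND and 23998 in HFD. For 28 genes the counting interval of the highest class lay clear of that of the next class. For the other 13 the intervals overlapped, namely Acsl4, Acsl5, Cpt1a, Cpt2, Acadl, Acaa2, Eci1, Eci2, Decr1, Etfa, Etfdh, Ppara and Ppard. Among them Acaa2, Eci1, Decr1, Etfa, Ppara and Ppard were highest in the pericyte-like class, which held 90 cells. Ppara stood at only 3.41 (0.704 to 9.97) there. With every cell thinned to 1000 UMIs the highest class changed for 13 genes, among them Angptl4, Acsl1, Cpt1a, Acadl, Hadha, Etfa and Ucp2, and with levels taken as a mean over cells for 7, Acsl1 and Ucp2 among them, so that the place of these genes depends on how cells of unequal depth are weighted.

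**Figure D1:**
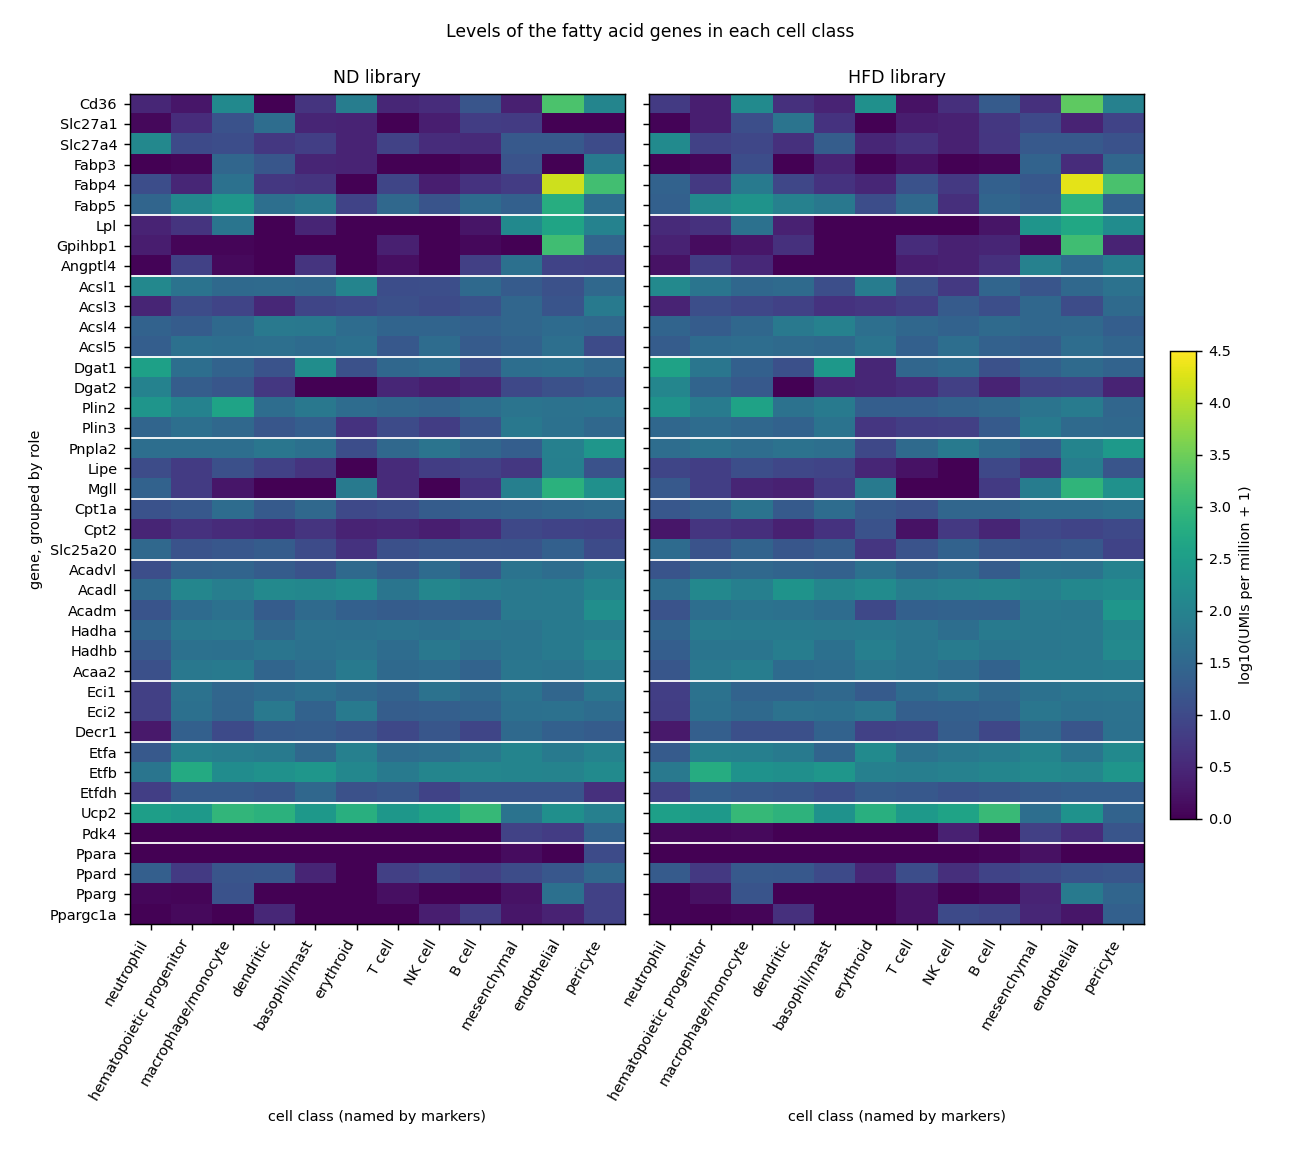
Level of each of the 41 genes in the 12 cell classes, ND on the left and HFD on the right, as log10 of UMIs per 1000000 plus 1. Brighter colour is a higher level. Cd36, Fabp4, Gpihbp1, Lpl and Mgll are brightest in the endothelial-like column, and most oxidation genes are darker in the neutrophil-like column than in the other larger classes.

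Several uptake and lipolysis genes were most abundant in endothelial-like cells. Cd36 (chr5:17781690-17888801, minus strand, GRCm38), the membrane receptor for long-chain fatty acids, stood at 2180 UMIs per 1000000 there over both libraries, against 141 in the next class, macrophage/monocyte-like cells. Fabp4 (chr3:10204088-10208576, minus strand), the carrier shared by adipocytes, macrophages and capillary endothelium, stood at 18636 against 1514 in pericyte-like cells. Gpihbp1 (chr15:75596628-75599481, plus strand), the anchor of LPL on capillaries, stood at 1329 against 11.4 in pericyte-like cells. Lpl (chr8:68880491-68907448, plus strand) stood at 455 against 190 in mesenchymal-like cells. Fabp5 (742), Mgll (835), Lipe (81.9) and Pparg (61.7) had their highest level in the same class. MGLL and LIPE release fatty acids from monoglyceride and diglyceride, and PPARγ is the PPAR receptor of adipocytes and endothelium.

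Within the endothelial-like class, the same genes were spread unevenly over 3 subclusters. The subcluster led by Rgs5, Car4 and Aqp1, below named by the latter pair and with 55 ND and 122 HFD cells, held the most Cd36, at 2287 UMIs per 1000000 in ND and 3704 in HFD. The subcluster led by Ccl21a and Lyve1, genes of lymphatic and sinusoidal endothelium, held 1048 and 1249. The one named here by Gkn3 and Sema3g, genes of arterial endothelium, held 945 and 642 in 18 ND and 26 HFD cells. Its 10 leading genes began with Cytl1 and Mgp. They also held Cstdc5, Stfa2 and Acod1, the last a leading gene of neutrophil-like clusters. Of the marker lists read against the other endothelial-like subclusters, the neutrophil list stood highest there (mean log2 1.07). In the Ccl21a and Lyve1 subcluster the B cell list stood highest (1.88), at a median of 2049 UMIs per cell. In the Car4 and Aqp1 subcluster it was the pericyte list (0.66). All cells of the Car4 and Aqp1 subcluster carried at least 1 UMI of Cd36 and of Fabp4, in both libraries. Gpihbp1 followed the same order, with 2083 and 2086 in the Car4 and Aqp1 subcluster, 875 and 765 in the Ccl21a and Lyve1 subcluster, and 117 and 18.8 in the Gkn3 and Sema3g subcluster.

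**Figure D2:**
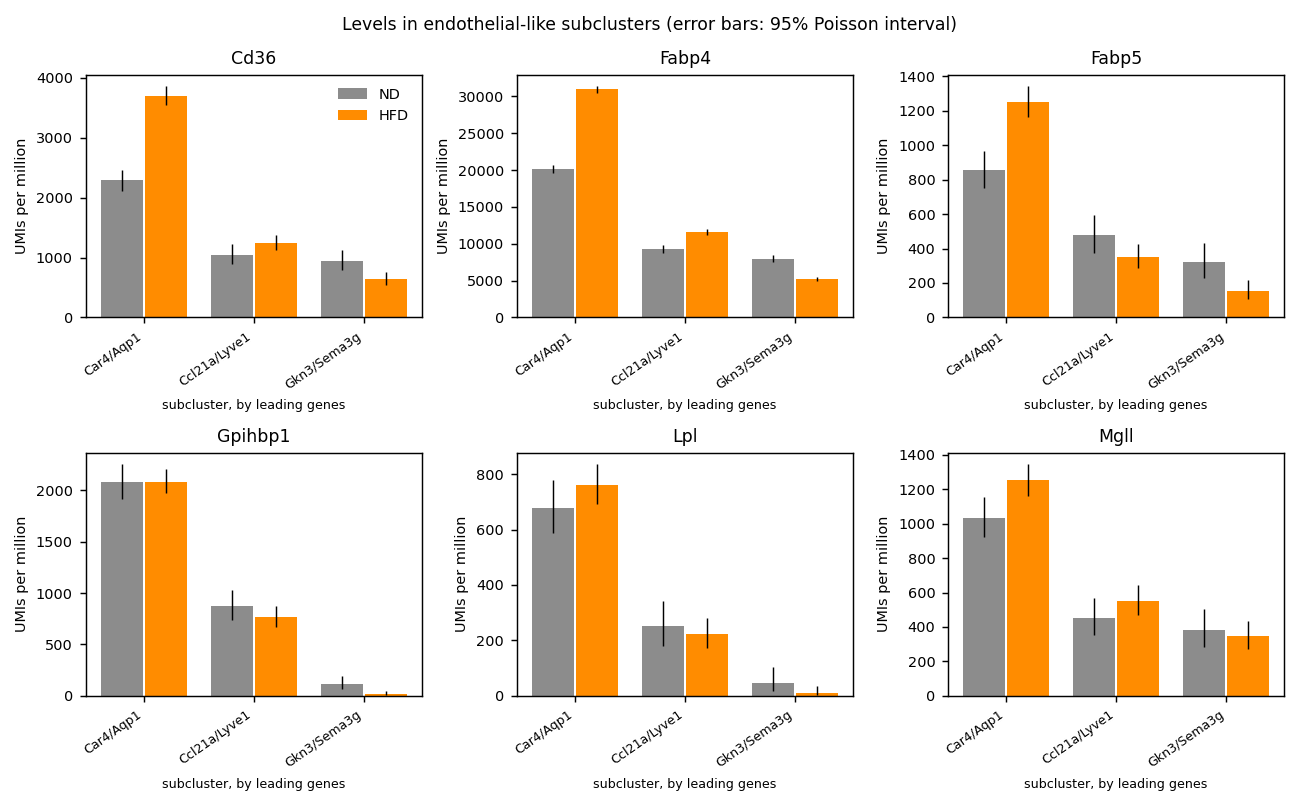
Levels of Cd36, Fabp4, Fabp5, Gpihbp1, Lpl and Mgll in the 3 endothelial-like subclusters, as bars of UMIs per 1000000 in ND and HFD with exact 95% Poisson intervals. Cd36 and Fabp4 were higher in HFD in the Car4/Aqp1 bars and lower in HFD in the Gkn3/Sema3g bars, while the 2 Gpihbp1 bars of the Car4/Aqp1 subcluster are nearly equal (2083 and 2086).

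Genes of triglyceride synthesis were most abundant in neutrophil-like cells. Dgat1 (chr15:76502015-76511953, minus strand), which joins the last fatty acid to diglyceride, stood at 374 UMIs per 1000000 there over both libraries, and Dgat2, a second enzyme of the same step, at 106. The transporter Slc27a4 (133), the acyl-CoA synthetase Acsl1 (129) and the carnitine/acylcarnitine carrier Slc25a20 (34.6) were also highest in this class. Summed over Dgat1, Dgat2, Plin2 and Plin3, the level was 714 in ND and 730 in HFD neutrophil-like cells, against 483 and 455 in macrophage/monocyte-like cells and 164 and 150 in mesenchymal-like cells. Plin2 (chr4:86648386-86670060, minus strand), a coat protein of lipid droplets in most cells, was highest in macrophage/monocyte-like cells (397), and Plin3 was highest in mesenchymal-like cells (65.7).

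Along 5 of the neutrophil-like clusters, from Camp and Ngp cells with the highest depth to Retnlg and Il1b cells, these genes did not move together. Dgat1 was at 249 UMIs per 1000000 in the deepest Camp and Ngp cluster, 369 in the Ngp, Camp and Ltf cluster, 526 in the Ngp, Ltf and Retnlg cluster, 417 in the cluster of Retnlg and stefin genes and 327 in the Il1b and Il1r2 cluster. Slc27a4 had a like course, with 52.3, 112, 185, 204 and 98.4 in the same clusters. Acsl1 was at 166, 230, 45.3, 52.6 and 139, lowest where Dgat1 was highest. Etfb (chr7:43444083-43457800, plus strand), the β subunit of the electron transfer flavoprotein, was at 139, 77.4, 24.2, 17.7 and 43.1.

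Per 1000000 UMIs of the class, oxidation genes were lowest in neutrophil-like cells. There 9 neutrophil markers alone made up 373695 in ND and 401497 in HFD, which leaves less for every other gene. Levels over the remaining UMIs are not given, so part of the low values reflects this measure. Of the 15 genes from the carnitine shuttle to the electron transfer flavoprotein, 13 had their lowest level among the 9 larger classes there, and the other 2, Cpt1a and Slc25a20, had it in T cell-like cells. Summed over the 15 genes and both libraries, the level was 270 UMIs per 1000000 in neutrophil-like cells, 469 in T cell-like, 577 in B cell-like, 613 in NK cell-like, 767 in macrophage/monocyte-like, 769 in endothelial-like and 815 in mesenchymal-like cells. It was 1202 in hematopoietic progenitor-like cells, where Etfb alone gave 579, and 1262 in the small pericyte-like class of 31 ND and 59 HFD cells. Over both libraries pericyte-like cells had the highest level of Acadm (210), Hadhb (125), Hadha (99.0) and Acadvl (88.7), chain-shortening enzymes or their subunits. They also had the highest level of Pnpla2 (255), the lipase that starts triglyceride breakdown. Etfa (123), which passes on electrons, was highest there over both libraries, but in mesenchymal-like cells in ND alone and erythroid-like cells in HFD alone. Thinning to 1000 UMIs changed the highest class of Hadha and of Etfa.

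Ucp2 (chr7:100493337-100502020, plus strand), a carrier of the mitochondrial inner membrane, was highest in B cell-like cells, at 1047 UMIs per 1000000 in ND and 1111 in HFD, and next in macrophage/monocyte-like cells, at 903 and 1045. Inside the B cell-like class it ran from 2178 in cells with Vpreb1, Igll1 and Dntt and 1804 in cells with Vpreb3, Pclaf and Igll1, genes of precursor B cells, to 326 in cells with H2-Aa and Ighd, genes of mature B cells. Ppargc1a (chr5:51454250-51567726, minus strand), the coactivator known for driving mitochondrial biogenesis, was at 81.4 (61.2 to 106) in the Vpreb1, Igll1 and Dntt cluster, from 19 ND and 35 HFD UMIs, and between 1.30 and 5.29 in the other B cell-like clusters. Pdk4, the kinase that restrains glucose oxidation, was scarce everywhere, with 47 ND and 73 HFD UMIs over all kept cells and its highest level, 18.2, in pericyte-like cells.

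Macrophage/monocyte-like cells divided by uptake genes. Cd36 stood at 430 UMIs per 1000000 in the cluster with C1qa, Pf4 and Lyve1, genes of resident macrophages, at 49.4 in the Ccl2 and Hmox1 cluster and at 6.07 in the Ms4a6c, Ccr2 and F13a1 cluster, genes of monocytes. Fabp5 was instead lowest in the C1qa cluster, at 86.3, and stood at 254 in the Ccr2 cluster and 377 in the Ccl2 and Hmox1 cluster. Plin2 was highest, at 685, in the Ccl2 and Hmox1 cluster, which held 113 ND and 35 HFD cells, against 343 in the C1qa and 369 in the Ccr2 cluster. The balance of these clusters therefore enters any value of the whole class.

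HFD was compared with ND gene by gene within each class, and a gene with at least 50 UMIs over both libraries was counted as higher or lower when its level differed by at least 1.5-fold. In mesenchymal-like cells 5 of 35 measured genes were higher in HFD and 1 was lower, where 5.45% and 3.93% of all 10785 genes tested were. In endothelial-like cells 3 of 26 were higher and 0 lower (6.63% and 5.18% of all genes). In neutrophil-like cells 2 of 31 were higher and 0 lower (1.84% and 5.77%), in macrophage/monocyte-like cells 1 of 34 was higher and 1 lower (2.5% and 4.18%), in B cell-like cells 3 of 33 were higher and 1 lower (2.18% and 4.02%), and in T cell-like cells 2 of 18 were higher and 0 lower (4.26% and 4.64%). In hematopoietic progenitor-like cells 0 of 30 genes passed in either direction (2.4% and 3.68%), in NK cell-like cells 0 of 11 (5.98% and 4.13%), and in basophil/mast-like cells 2 of 8 were higher and 0 lower (7.6% and 6.17%). The median log2 ratio of the measured genes was 0.02 in mesenchymal-like, 0.18 in endothelial-like, 0.08 in neutrophil-like, 0.09 in macrophage/monocyte-like, 0.15 in B cell-like and 0.22 in T cell-like cells, beside 0.05, 0.03, −0.07, 0.03, 0.04 and 0.05 over all genes of each class. Over all kept cells together, where the make-up of the libraries also enters, 8 of 40 genes were higher and 0 lower (9.49% and 2.76%). Most of the measured genes thus differed by less than 1.5-fold in each of these classes. The higher counts of mesenchymal-like, neutrophil-like and B cell-like cells include Fabp4, from which no difference in expression is read there.

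**Figure D3:**
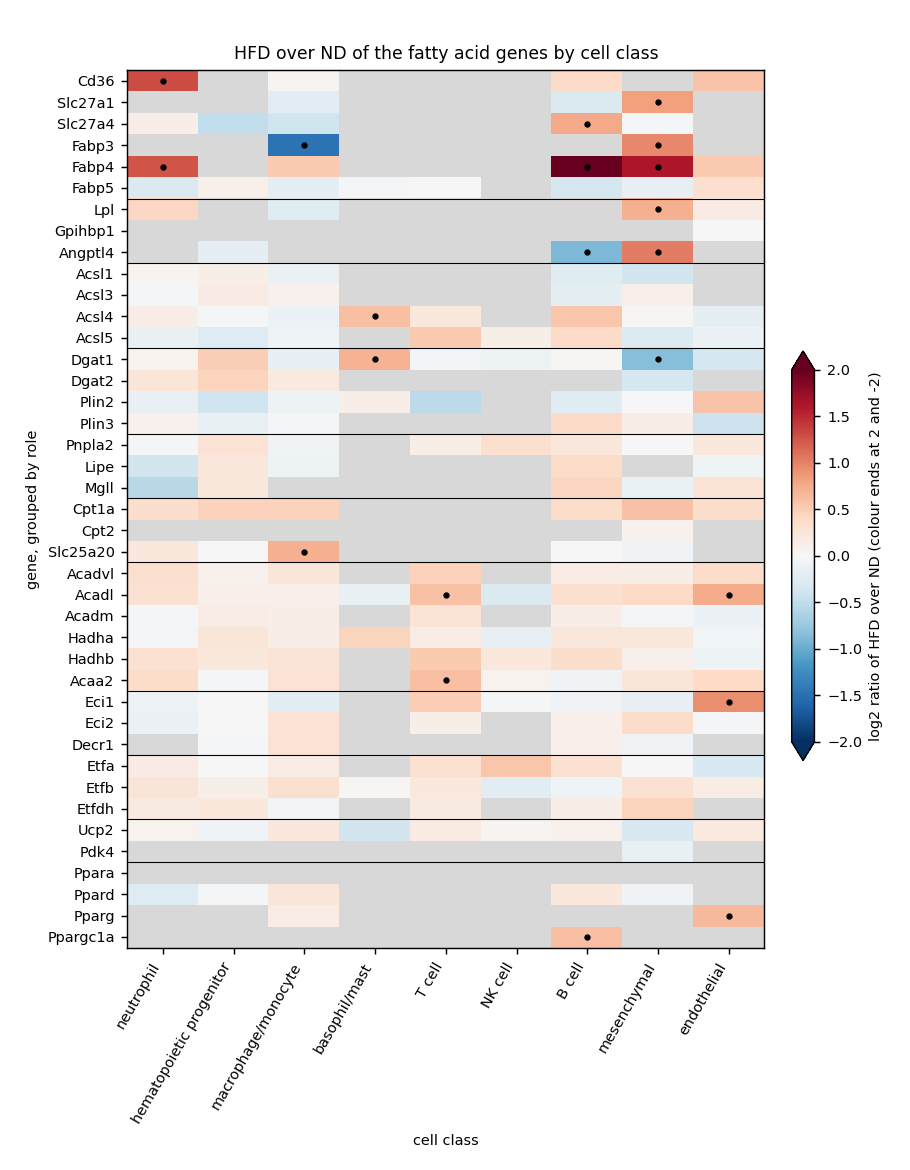
Log2 ratio of HFD over ND for the 41 genes in the 9 larger classes, red where higher in HFD and blue where lower, with the colour scale ending at −2 and 2. Grey marks genes under 50 UMIs, and a dot marks a difference of at least 1.5-fold.

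In mesenchymal-like cells, genes of lipoprotein lipolysis were higher in the HFD library. Angptl4 (chr17:33773750-33781830, minus strand), the secreted inhibitor of LPL, stood at 45.6 UMIs per 1000000 in ND and 93.2 in HFD, a ratio of 2.04 (1.75 to 2.39). A UMI of Angptl4 was found in 86 of 409 ND cells (21.03%, 17.2 to 25.3) and 269 of 670 HFD cells (40.1%, 36.4 to 44.0), and with each cell thinned to 1000 UMIs in 3.91% and 9.17%. T cell-like cells, which should lack the gene, had it in 0.35% and 0.99% of cells at median depths of 6520 and 6891 UMIs, against 10640 and 9541.5 in mesenchymal-like cells. Lpl stood at 138 in ND and 225 in HFD, a ratio of 1.63 (1.49 to 1.79), but the share of cells with an Lpl UMI was 50.9% and 48.4%, so that the HFD cells with Lpl carried more of it and were not a larger share. The log2 ratio of Lpl was 0.71, and it was 0.48 with the mesenchymal-like clusters given the same weights in both libraries and 0.21 after thinning, which counts every cell alike.

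Mesenchymal-like subclusters differed in where Lpl and Angptl4 were high. Lpl was higher in HFD in the Ccl11 and Hmcn2 fibroblast-like subcluster (75 ND and 143 HFD cells), at 289 in ND and 548 in HFD, a ratio of 1.89 (1.64 to 2.20), or 1.72 without the 5 cells with the most Lpl in each library. In the Ibsp and Mmp13 subcluster (58 and 128 cells), genes of osteoblasts, Lpl was about as abundant in ND but near equal between libraries, at 297 and 305, a ratio of 1.03 (0.846 to 1.253). Angptl4 was above 1.4-fold in each subcluster where it was detected, with ratios of 3.20 (2.13 to 5.003) in the Ccl11 and Hmcn2 subcluster, 1.63 (1.19 to 2.25) in the Ibsp and Mmp13 subcluster, 1.65 in the Pi16 and Clec3b subcluster, 1.68 in the Chad and Wnt16 subcluster and 4.58 (1.68 to 17.5) in the Col2a1 and Acan subcluster. Its highest level was in Ibsp and Mmp13 cells, 103 in ND and 167 in HFD, where 25.9% and 55.5% of cells had a UMI. In Ccl11 and Hmcn2 cells the share was 20.0% and 46.9%. The subcluster named here by Col2a1 and Acan held 20 ND and 59 HFD cells, and its first leading gene was Ibsp. Of the marker lists read against the other mesenchymal-like subclusters, the tenocyte list stood highest in it (mean log2 4.07).

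**Figure D4:**
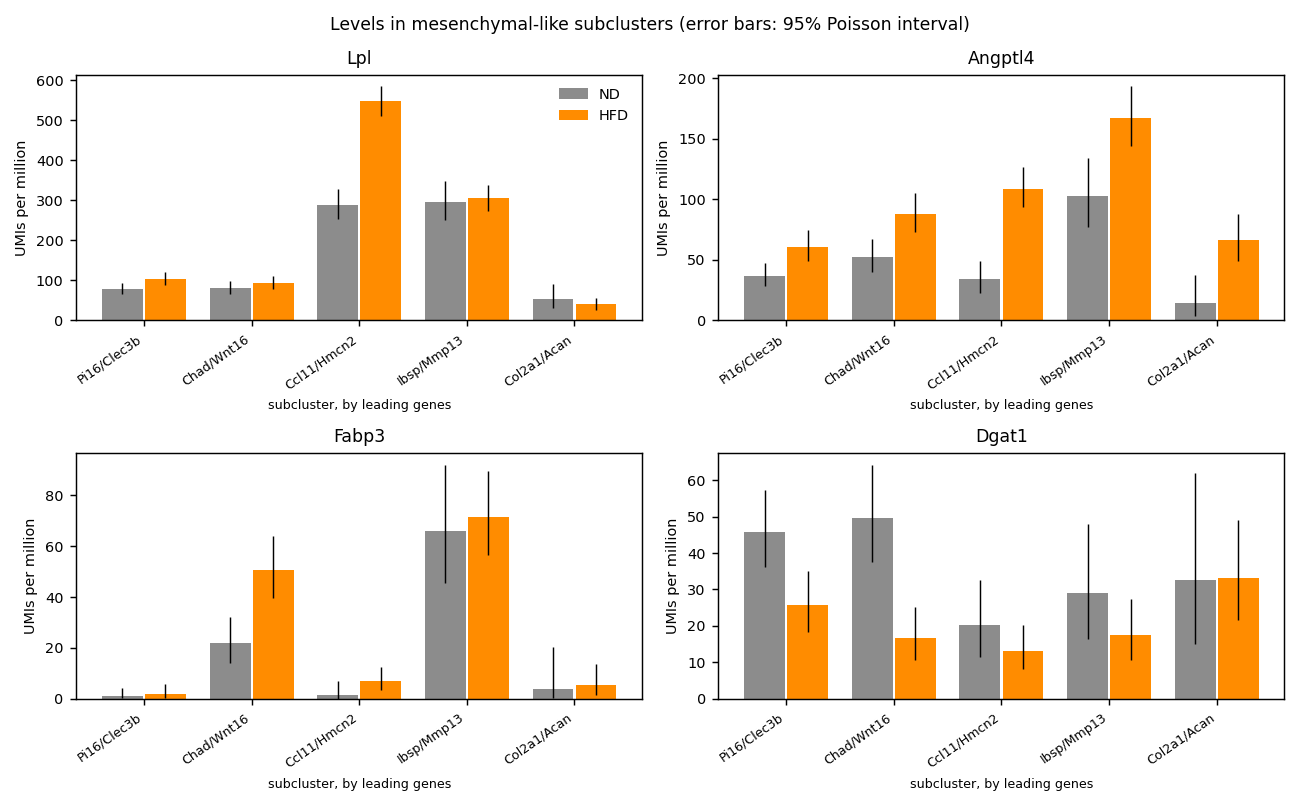
Levels of Lpl, Angptl4, Fabp3 and Dgat1 in 5 mesenchymal-like subclusters, as bars of UMIs per 1000000 in ND and HFD with exact 95% Poisson intervals. Each is named by 2 of its leading genes, which for Col2a1/Acan are not the first 2. Subclusters of 33 ND and 73 HFD cells and of 8 ND and 16 HFD cells are not drawn. Angptl4 is higher in HFD in all 5, Lpl is clearly higher in the Ccl11/Hmcn2 subcluster, and Dgat1 is lower in 4 and near equal in the Col2a1/Acan subcluster (ratio 1.02).

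Of the uptake genes of mesenchymal-like cells Fabp3, Slc27a1 and Fabp4 were past the limit and higher in HFD, and of the storage genes Dgat1 alone was past it and was lower. The Fabp4 value is not read as a difference in expression, for the reason given below. Fabp3 (chr4:130308595-130315463, plus strand), the binding protein known from heart and muscle, stood at 13.4 in ND and 26.1 in HFD, a ratio of 1.95 (1.46 to 2.63), which was 1.48 without the 5% of cells with the highest doublet scores. It was 2.33-fold (1.46 to 3.84) higher in the Chad and Wnt16 subcluster, at 21.8 and 50.8, and 1.09-fold in the Ibsp and Mmp13 subcluster, where it was highest in ND (65.9 and 71.7). The transporter Slc27a1 stood at 5.02 and 8.88, a ratio of 1.77 (1.09 to 2.96). Dgat1 was lower in HFD, at 41.8 and 23.2, a ratio of 0.554 (0.448 to 0.685), with 0.336 (0.198 to 0.554) in the Chad and Wnt16 subcluster and 0.559 in the Pi16 and Clec3b subcluster. The summed level of 9 neutrophil markers in mesenchymal-like cells was also lower in HFD, at 19236 in ND and 9981 in HFD, beside 373695 and 401497 in neutrophil-like cells, where Dgat1 was highest. In T cell-like cells the same markers stood at 5814 and 2488, with Dgat1 at 30.4 and 29.2. The part of neutrophil RNA in the Dgat1 value was not tested.

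Other storage and oxidation genes of the class were near equal or just short of the limit. Plin2 stood at 52.1 in ND and 52.5 in HFD over the class, while it was 2.14-fold (1.38 to 3.41) higher in HFD in the Ccl11 and Hmcn2 subcluster. In the Ibsp and Mmp13 subcluster Plin2 was lower, at 0.505 (0.329 to 0.776), but 36 of its 45 ND UMIs there lay in 5 cells, and without the top 5 cells of each library the ratio was 1.37. Cpt1a, the gate of the carnitine shuttle, stood at 26.6 and 39.8, a ratio of 1.50 (1.21 to 1.86) that lay just under the limit before rounding. Acadl, which starts a round of β-oxidation, had a ratio of 1.32 (1.15 to 1.51), Fabp5 stood at 22.6 and 20.2, Ucp2 at 51.7 and 41.7, and Pdk4 at 6.69 and 6.01.

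**Figure D5:**
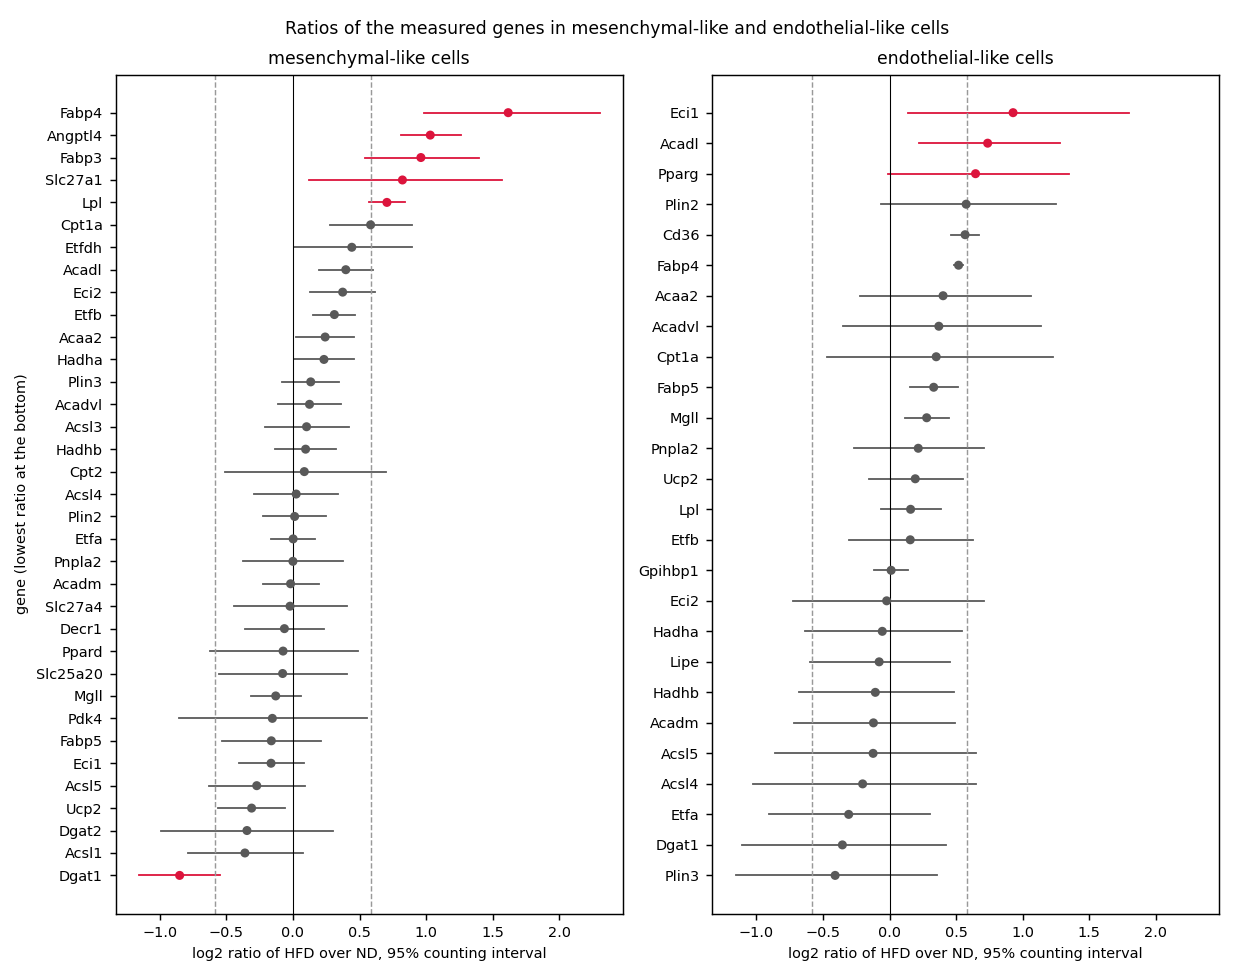
Ratio of HFD over ND on a log axis for the 35 measured genes in mesenchymal-like cells and the 26 in endothelial-like cells, with 95% counting intervals, and dashed lines at 1.5-fold in each direction. Angptl4 and Fabp4 lie to the right and Dgat1 to the left in mesenchymal-like cells, while the intervals of many other genes include 1. No difference in expression is read from Fabp4 in these mesenchymal-like cells.

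Adipocyte genes were checked in the mesenchymal-like cells, since Lpl, Fabp4, Plin2 and Angptl4 are also genes of fat cells. Over 6 adipocyte markers (Adipoq, Plin1, Cidec, Lep, Retn and Adrb3) the class held 14 ND and 53 HFD UMIs, with Cidec, Lep and Adrb3 at 0 in both libraries. Pparg had 3 and 13 UMIs and Cd36 7 and 23 in the same class. Adipoq was among the 10 leading genes of a shallow mesenchymal-like subcluster of 33 ND and 73 HFD cells (median 2144.5 UMIs). The marker list that stood highest in that subcluster was that of B cells. The part of adipocyte RNA in the Lpl and Angptl4 values was not tested.

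In endothelial-like cells, the abundant uptake and lipolysis genes lay between equal and 1.5-fold higher in HFD. Cd36 stood at 1656 in ND and 2453 in HFD, a ratio of 1.48 (1.38 to 1.60), Fabp4 at 14513 and 20786 (1.43, 1.40 to 1.47), Fabp5 at 634 and 798 (1.26, 1.11 to 1.43) and Mgll at 733 and 889 (1.21, 1.08 to 1.36). Gpihbp1 stood at 1322 and 1332 (1.01, 0.923 to 1.10) and Lpl at 423 and 472 (1.12, 0.957 to 1.30). None of these 6 genes passed the 1.5-fold limit. The share of cells with a Cd36 UMI was 83.8% in ND and 83.9% in HFD, against 1.40% and 0.49% in T cell-like cells.

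By subcluster, the ratios of Cd36 and Fabp4 were highest in the Car4 and Aqp1 subcluster. There Cd36 had a ratio of 1.62 (1.48 to 1.77), Fabp4 1.54 (1.49 to 1.58), from 20145 in ND and 30947 in HFD, and Fabp5 1.46 (1.27 to 1.70), while Gpihbp1 had 1.00 (0.910 to 1.11). In the Gkn3 and Sema3g subcluster the ratios were 0.680 (0.528 to 0.875) for Cd36, 0.658 (0.604 to 0.717) for Fabp4 and 0.483 for Fabp5, and in the Ccl21a and Lyve1 subcluster 1.19 (0.988 to 1.44) for Cd36 and 0.741 for Fabp5, with Fabp4 at 9281 and 11602. Pparg, a known regulator of Cd36 and Fabp4, had a ratio of 2.04 (1.15 to 3.86) in the Car4 and Aqp1 subcluster, from 51.0 and 104. Rgs5, a pericyte marker, was the leading gene of this subcluster, and 7 pericyte markers summed to 46.8 in ND (27 UMIs) and 350 in HFD (388 UMIs) over the endothelial-like class. Pericyte-like cells held less Fabp4 than endothelial-like cells, at 1368 in ND and 1596 in HFD. The 9 neutrophil markers summed to 17111 in ND and 15068 in HFD over the endothelial-like class. The 8 B cell markers summed to 991 in ND and 768 in HFD over the same class. The parts of pericyte, neutrophil and B cell RNA in these ratios, and the differences between subclusters, were not tested, since each has 1 library per diet.

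The 3 endothelial-like genes past 1.5-fold had few UMIs. Acadl stood at 71.0 in ND and 118 in HFD, a ratio of 1.67 (1.17 to 2.43). Eci1, an isomerase for unsaturated chains, stood at 29.4 and 56.0 (1.90, 1.10 to 3.47). Pparg stood at 45.0 and 70.5 (1.56, 0.992 to 2.54), an interval that reaches 1. With cells thinned to 1000 UMIs Eci1 had a ratio of 1.32 and Pparg one of 1.24, both under the limit, while Acadl stayed at 1.63 or above in all 11 alternatives. Angptl4 had 4 ND and 41 HFD UMIs in these cells, too few to be counted, at 6.93 and 37.0. Plin2 stood at 48.5 and 72.3 (1.49, 0.958 to 2.38), Cpt1a at 31.2 and 39.7, Ucp2 at 171 and 196, and Pdk4 had 3 UMIs in each library.

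Fabp4 was also higher in HFD in classes where it was scarce. In B cell-like cells it stood at 3.52 in ND and 22.6 in HFD, a ratio of 6.42 (4.26 to 10.0) from 27 and 172 UMIs, in neutrophil-like cells at 10.7 and 25.5 (2.38, 1.99 to 2.86), and in mesenchymal-like cells at 5.23 and 16.0 (3.07, 1.97 to 4.94), where 1 HFD cell held 42 of 112 UMIs. The share of cells with a Fabp4 UMI was 1.58% in ND and 7.59% in HFD for B cell-like cells, 0.70% and 8.87% for T cell-like cells, 3.83% and 10.3% for neutrophil-like cells and 11.9% and 22.1% for macrophage/monocyte-like cells. The share was thus higher in HFD in each of these classes, T cell-like cells included, which should lack the gene. Median depths in ND and HFD were 4126 and 4301 UMIs in neutrophil-like, 3889 and 3823 in B cell-like and 6520 and 6891 in T cell-like cells. The share in B cell-like cells lay below that in T cell-like cells in HFD and above it in ND, and the share in neutrophil-like cells lay above it in both. In neutrophil-like cells 1 HFD cell held 53 of 434 Fabp4 UMIs, and in B cell-like cells 1 held 31 of 172. The Fabp4 share of T cell-like cells was itself higher in HFD. For this reason no difference in expression is read from the Fabp4 values of B cell-like, T cell-like, neutrophil-like, macrophage/monocyte-like or mesenchymal-like cells.

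Values that moved beside it were these. Over all kept cells Fabp4 stood at 196 in ND and 513 in HFD, a ratio of 2.62, and endothelial-like cells numbered 117 and 230. The summed level of 8 endothelial markers stood at 75.4 and 86.2 in B cell-like cells, 21.1 and 25.3 in neutrophil-like cells, 34.0 and 24.6 in T cell-like cells and 41.4 and 30.1 in mesenchymal-like cells. Cd36 in neutrophil-like cells, at 2.00 and 4.93 (2.47, 1.62 to 3.83), was the other gene past the limit in that class, and Gpihbp1 had 2 and 15 UMIs in B cell-like cells. The part of free RNA in these values was not tested.

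In neutrophil-like cells Plin2 differed in opposite directions among 4 of the 6 clusters. Over the class it stood at 224 in ND and 202 in HFD. It was lower in HFD in the deepest Camp and Ngp cluster, at 129 and 78.0 (0.606, 0.515 to 0.712), and in the Ngp, Camp and Ltf cluster, at 179 and 122 (0.682, 0.609 to 0.763), but higher in the Retnlg and stefin cluster, at 253 and 318 (1.26, 1.16 to 1.37), and in the Il1b and Il1r2 cluster, at 311 and 425 (1.37, 1.22 to 1.53). Without the 5 cells with the most Plin2 in each library the 4 ratios were 0.660, 0.692, 1.27 and 1.37. Plin2 is not given for the Ngp, Ltf and Retnlg cluster (259 ND and 400 HFD cells) or the Retnlg and G0s2 cluster (171 and 20). Both enter the values of the whole class, and the part of this balance was not tested. Dgat1 (365 and 383), Dgat2 (96.5 and 114), Slc27a4 (127 and 139), Acsl1 (127 and 132) and Ucp2 (325 and 342) were near equal over the class.

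In macrophage/monocyte-like cells Fabp3 was lower in HFD, at 29.4 in ND and 10.6 in HFD, a ratio of 0.361 (0.271 to 0.476). In the C1qa, Pf4 and Lyve1 cluster it stood at 57.1 and 27.3 (0.478, 0.343 to 0.661), and in the Ccl2 and Hmox1 cluster it had 75 ND and 0 HFD UMIs, in 113 and 35 cells. Slc25a20 was higher, at 15.9 and 26.0 (1.64, 1.28 to 2.10), and Cpt1a, its partner in the carnitine shuttle, stood at 37.5 and 51.6 (1.38, 1.17 to 1.63). Plin2 (410 and 384), Cd36 (138 and 144), Fabp5 (231 and 203), Ucp2 (903 and 1045) and Pparg (12.6 and 13.9) differed by less than 1.5-fold, and Fabp4 stood at 46.8 and 67.6 (1.44).

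Lpl stood at 55.8 and 47.0 over the macrophage/monocyte-like class but differed between its clusters. In the Ms4a6c, Ccr2 and F13a1 cluster it was lower in HFD, at 63.1 and 28.2 (0.448, 0.355 to 0.562), with 0.442 when the 5 cells with the most Lpl were left out of each library. In the C1qa, Pf4 and Lyve1 cluster it was higher, at 43.3 and 84.6 (1.95, 1.50 to 2.56), but 124 of its 186 HFD UMIs lay in 5 cells and the ratio without such cells was 1.09.

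The remaining genes past the limit rested on low levels. In B cell-like cells Slc27a4 stood at 2.47 and 4.20 (1.70, 0.933 to 3.17) and Ppargc1a at 5.08 and 7.74 (1.52, 1.00 to 2.35), while Angptl4 was lower in HFD, at 6.12 and 3.28 (0.536, 0.316 to 0.889) from 47 and 25 UMIs. The Angptl4 UMIs lay in 27 ND and 23 HFD cells, with 46.8% of them in 5 cells in ND and 28% in HFD. The level of Ppargc1a was far higher in the Vpreb1, Igll1 and Dntt cluster than in the other B cell-like clusters. That cluster held 49 ND and 61 HFD cells, and its balance enters the Ppargc1a ratio of the class. In T cell-like cells Acadl stood at 54.2 and 81.7 (1.51, 1.15 to 1.97) and Acaa2, the thiolase that ends a round of β-oxidation, at 33.0 and 49.8 (1.51, 1.07 to 2.14). In basophil/mast-like cells (47 ND and 53 HFD) Dgat1 stood at 157 and 253 (1.62, 1.22 to 2.15) and Acsl4, the synthetase known for arachidonic acid, at 61.1 and 92.3 (1.51, 0.952 to 2.43).

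In classes under 100 cells the ratios rested on few UMIs. Among them Cd36 stood at 79.2 in ND and 180 in HFD erythroid-like cells (2.27, 1.56 to 3.33). In pericyte-like cells Lpl had a ratio of 1.59 (1.05 to 2.48) and Etfb 1.57 (1.11 to 2.26), 2 of 14 measured genes, where 7.19% of all genes were higher. In the dendritic-like class, led by Siglech and Ccr9, 3 of 11 were higher (7.01% of all genes), and Acadl stood at 131 and 206 (1.57). In erythroid-like cells 4 of 12 were higher (6.26% of all genes), and in none of the 3 classes was a measured gene lower (6.95%, 4.75% and 8.88% of all genes).

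The 15 oxidation genes, summed, had a ratio of HFD over ND above 1 in all 12 classes, with an interval that includes 1 in 4 of them. The median log2 ratio over all genes was also above 0 except in neutrophil-like (−0.07) and erythroid-like cells (−0.02). It was 0.07 in NK cell-like and 0.06 in basophil/mast-like cells. In pericyte-like cells it was 0.03, and in mesenchymal-like and T cell-like cells 0.05. This median counts each gene alike while the sum weights genes by their UMIs, so only the direction can be compared. Sums of other genes were not taken, so the ratios are not read as particular to these 15 genes. The sum stood at 251 in ND and 288 in HFD neutrophil-like cells (1.15, 1.10 to 1.20), 707 and 826 in macrophage/monocyte-like cells (1.17, 1.12 to 1.22), 756 and 855 in mesenchymal-like cells (1.13, 1.08 to 1.18), 420 and 534 in T cell-like cells (1.27, 1.15 to 1.40), and 1020 and 1397 in pericyte-like cells (1.37, 1.20 to 1.56). In endothelial-like cells it stood at 712 and 799 (1.12, 0.998 to 1.27). The intervals that include 1 were this one and those of basophil/mast-like (1.04, 0.902 to 1.20), NK cell-like (1.04, 0.909 to 1.20) and erythroid-like cells (1.09, 0.943 to 1.253). The other ratios were 1.07 in hematopoietic progenitor-like, 1.11 in B cell-like and 1.17 in dendritic-like cells. The make-up of classes differed between libraries beside these sums: the Retnlg and G0s2 neutrophil-like cluster held 171 ND and 20 HFD cells, the Ngp, Ltf and Retnlg cluster 259 and 400, and 1 of the T cell-like clusters 110 and 42. Its part in the sums was not tested. All 12 come from the same pair of libraries and are not independent. Cpt1a had a ratio above 1 in each class, but it reached 50 UMIs over both libraries in only 6 of the 12. The ends of the range, 1.03 in dendritic-like and 1.90 in erythroid-like cells, fell below that minimum. Among classes that reached it, the ratio was 1.28 in neutrophil-like, 1.37 in hematopoietic progenitor-like and 1.29 in B cell-like cells.

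Of the 4 nuclear receptor and coactivator genes, none but Pparg in endothelial-like cells and Ppargc1a in B cell-like cells passed the limit in the 9 larger classes. Ppard stood at 10.2 and 9.73 in mesenchymal-like cells of ND and HFD and at 21.8 and 18.3 in neutrophil-like cells. In mesenchymal-like cells Ppara had 2 and 4 UMIs and Ppargc1a 4 and 14.

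Promoters of the list were searched for the direct repeat that PPAR binds with its partner RXR, the half-site AGGTCA written again after 1 base, on both strands. RefSeq promoter entries of GRCm38, each of 300 bases (250 before and 50 after the start), were found for 32 of the 41 genes. The exact repeat was in 0 of these 39 entries and in 0.0396% of 32851 promoters of all genes, and with the fourth base of each half-site free it was in 0 and 0.381%. This says only that these letters are not in these windows.

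Over the 12 classes and both libraries (24 profiles, which share 2 libraries), the genes whose log2 level most resembled that of Cd36 were Nxpe4 (Pearson r 0.90), C2cd2l (0.89) and F11r (0.88). For Lpl they were Trim47 (0.99), Gas2l1 (0.98) and Dock1 (0.98), and for Ucp2 Tmem179b (0.89), Supt4a (0.88) and Med7 (0.88), of 11880 genes compared.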

How the data were processed

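Single-cell RNA of periosteum was measured in 2 pooled libraries, ND and HFD. The deposited values are counts, whole numbers of UMIs per gene and barcode, which the authors made with Cell Ranger 6.0.1 on build mm10 per the submitters' processing notes, without normalization. The labels list 4 mice per diet, but the matrices tie no barcode to a mouse, so neither sums per mouse nor a test was possible. The members and gene lists were chosen with earlier results of these data known.

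Barcodes with 500 genes or fewer, 8000 or more, or at least 20% mitochondrial UMIs were removed. Totals were 48558889 (ND) and 49940976 (HFD) UMIs over all barcodes, so that a gene at 50 UMIs in a class is imprecise. Both libraries were merged and clustered under R 4.3.3 in Seurat 5.3.0 (sctransform 0.4.2 and SeuratObject 5.2.0) with SCTransform, 30 principal components and resolution 0.5. Of 3000 variable genes, 15 of the 41 and 10 of the other pathway genes were removed first. Clusters took the class whose markers stood highest, with at least 3 detected. Limits for leaving 2 clusters unnamed (246 ND and 180 HFD cells) and the subclustering were set after clusters were seen, and names may differ from those of the study. Scrublet in scanpy 1.11.5 called 9 ND and 23 HFD cells (0.149% and 0.370%), too few to have worked, and these were kept.

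Levels are summed UMIs per 1000000 of the class with exact Poisson intervals. HFD over ND ratios have exact binomial intervals and shares of cells exact Clopper-Pearson intervals, all 95% and covering counting error only. A gene entered with 50 UMIs over both libraries and was counted past 1.5-fold. All 41 genes are accounted for, those past the limit in classes of at least 100 cells are named, and Cd36, Fabp4, Fabp5, Lpl, Plin2, Angptl4, Ucp2, Pdk4, Cpt1a and the 4 receptor and coactivator genes are named whatever their values. Values within clusters and subclusters were chosen after they were seen. For shares, cells were also thinned to 1000 UMIs, with 55 (ND) and 51 (HFD) shallower cells dropped. For likeness, log2(UMIs per 1000000 + 10) was used over genes with at least 200 UMIs. Genes of the other pathway list of 68 were named at 100 UMIs, and the list was counted at 50 UMIs. Gene positions are those of GRCm38 (GENCODE), matched by identifier for all 41. Tables and figures were made in Python 3.11.15 with pandas 2.3.3, numpy 2.4.6, matplotlib 3.10.9, scipy 1.17.1 and anndata 0.12.19. The computation was tested on simulated counts. Alternatives were other UMI minimums and fold limits, a mitochondrial limit of 10%, thinning, cluster weights, centring, denominators, resolutions and doublet removal.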

Additional observations from a re-analysis of the deposited data

Results flagged for a closer look

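Of the 41 genes, 3 passed the limit in opposite directions in different classes, and none of these differences between classes was tested, since each class has 1 library per diet. The share of all genes that did so was not computed, so the count is not read as a result about the 41 genes. Fabp3, a fatty acid carrier, had an HFD over ND ratio of 1.95 in mesenchymal-like and 0.361 in macrophage/monocyte-like cells. Angptl4, the inhibitor of LPL, had a ratio of 2.04 in mesenchymal-like and 0.536 in B cell-like cells, the latter from 47 and 25 UMIs. Those UMIs lay in 27 ND and 23 HFD B cell-like cells, with 46.8% of them in 5 cells in ND and 28% in HFD. The lower B cell-like value thus leans on a few ND cells. Dgat1, the enzyme of triglyceride synthesis, had a ratio of 1.62 in basophil/mast-like and 0.554 in mesenchymal-like cells. Fabp3 in mesenchymal-like cells reached 1.48 without the 5% of cells with the highest doublet scores, and Dgat1 in basophil/mast-like cells 1.26 after thinning, both under the limit of 1.5-fold. The summed level of 9 neutrophil markers stood at 6455 in ND and 1328 in HFD basophil/mast-like cells and at 19236 and 9981 in mesenchymal-like cells, and its part was not tested.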

How the results depend on the processing

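No paired analysis was possible because each diet has 1 pooled library and no cell carries a replicate number. Among summary values, 142 alternatives stayed close to the reported value and 24 moved. With cells thinned to 1000 UMIs, neutrophil-like cells had 4 genes higher and 2 lower, macrophage/monocyte-like cells 0 lower and a median log2 ratio of −0.014, and endothelial-like cells a median of 0.44. With a limit 25% above equal levels in place of 1.5-fold, the genes higher and lower were 6 and 2 in neutrophil-like, 4 and 2 in macrophage/monocyte-like, 9 and 3 in mesenchymal-like and 10 and 2 in endothelial-like cells. At 2-fold, macrophage/monocyte-like and endothelial-like cells had 0 higher, and mesenchymal-like cells 2 higher and 0 lower. With a minimum of 20 UMIs, 5 genes were higher and 1 lower in endothelial-like and 1 lower in neutrophil-like cells. In macrophage/monocyte-like cells, 6 genes were higher at resolution 0.25, 2 at resolution 1 and 2 with clusters given the same weights, and 3 were lower with the 41 genes among the clustering genes. The cause was not tested, except that limits and minimums change counts by construction. The share of all genes past the limit is not given for these settings. The counts are thus not read as results about the 41 genes.

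Of single genes, 373 values stayed close, 45 moved and 2 reversed after thinning, Acsl4 in basophil/mast-like cells (log2 ratio −0.59) and Slc27a4 in B cell-like cells (−0.37). The Acsl4 value then rests on fewer than 50 UMIs. Of the genes past 1.5-fold in the larger classes, Acaa2 and Acadl in T cell-like, Acsl4 and Dgat1 in basophil/mast-like, Eci1 and Pparg in endothelial-like, Ppargc1a and Slc27a4 in B cell-like, and Lpl and Fabp3 in mesenchymal-like cells came under the limit in at least 1 alternative, with lowest ratios of 1.44, 1.39, 0.665, 1.26, 1.32, 1.24, 1.24, 0.772, 1.16 and 1.48. The others stayed past 1.5-fold in each alternative computed for single genes. Angptl4 in mesenchymal-like cells kept a ratio of 1.93 to 2.22 over 11 alternatives. Lpl in the same cells had a log2 ratio of 0.21 after thinning and 0.48 with equal cluster weights, and Fabp4 in B cell-like cells 1.56 with the 41 genes among the clustering genes and 5.33 after thinning (ratios of 2.96 and 40.1). Leaving out the cell with the most UMIs of a gene in each library, chosen after the data were seen, gave 1.58 for Lpl and 2.40 for Fabp4 in mesenchymal-like cells and took Acaa2 in T cell-like cells just under the limit (1.50). Removing the 5% of cells with the highest doublet scores was also added after the data were seen. At resolution 0.25 no cluster was named hematopoietic progenitor-like or basophil/mast-like, and after thinning no gene of basophil/mast-like cells reached 50 UMIs, so these gave no counts or median. Depth limits the classes under 100 cells and genes such as Ppara and Pdk4.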

Other observations

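Among 68 other genes of fatty acid metabolism, named at 100 UMIs, some stood apart between the libraries. G0s2, the inhibitor of the lipase PNPLA2, was lower in HFD in mesenchymal-like cells, at 145 UMIs per 1000000 in ND and 62.0 in HFD (ratio 0.429, 0.379 to 0.484), in B cell-like cells, at 28.1 and 5.38 (0.191, 0.133 to 0.268), in T cell-like cells, at 75.0 and 23.9 (0.319), and in macrophage/monocyte-like cells, at 35.4 and 18.99 (0.537). It was not lower in endothelial-like cells, at 81.4 and 112 (1.38). G0s2 is abundant in neutrophil-like cells, at 1238 and 1014 (0.819), and leads a neutrophil-like cluster of 171 ND and 20 HFD cells. The part of free RNA in the G0s2 values of other classes was not tested.

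Acot1, a cytosolic acyl-CoA thioesterase, stood at 29.1 in ND and 55.2 in HFD neutrophil-like cells (1.89, 1.69 to 2.12), and its near-identical mitochondrial neighbour Acot2 at 3.56 and 7.11 (1.99, 1.44 to 2.78), so that reads could be shared between them. Hilpda, a lipid droplet protein that inhibits PNPLA2, stood at 31.2 and 55.9 in hematopoietic progenitor-like cells (1.79, 1.50 to 2.14) and had a ratio of 1.70 in T cell-like cells. Acox3, a peroxisomal oxidase, was lower in HFD in macrophage/monocyte-like cells, at 41.5 and 27.1 (0.652), and in B cell-like cells (0.625). Hsd17b4, a peroxisomal enzyme of β-oxidation, stood at 20.8 and 33.9 in macrophage/monocyte-like cells (1.63), and Acat1 at 45.0 and 79.5 in endothelial-like cells (1.77). Pdk2 had a ratio of 1.72 in mesenchymal-like cells, Acot7 one of 1.98 in T cell-like cells, and Acot2 one of 1.75 in hematopoietic progenitor-like cells. Counted at 50 UMIs, 3 of 50 measured genes of this list were higher and 1 lower in mesenchymal-like cells (5.45% and 3.93% of all genes). In macrophage/monocyte-like cells 2 of 42 were higher and 2 lower (2.5% and 4.18%), and in T cell-like cells 4 of 21 and 2 (4.26% and 4.64%). In B cell-like cells 0 of 38 were higher and 3 lower (2.18% and 4.02%), and in neutrophil-like cells 2 of 37 and 2 (1.84% and 5.77%). In endothelial-like cells 2 of 16 were higher and 0 lower (6.63% and 5.18%), and in hematopoietic progenitor-like cells 2 of 38 and 0 (2.4% and 3.68%).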
